A study of Mus musculus with 18 samples.

Results

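MuRRS elements and LTRIS long terminal repeats (LTRs) are mouse endogenous retrovirus sequences of the ERV1 class. They were taken here as the repeat rows whose name begins with MuRRS or LTRIS, which gave 11 of the 1365 repeat rows in each of the 3 deposited result tables. Each cell type has a table. The 11 are the internal parts MuRRS-int and MuRRS4-int and 9 LTRs, namely LTRIS2, LTRIS3, LTRIS4, LTRIS4A, LTRIS4B, LTRIS5, LTRIS6, LTRIS_Mm and LTRIS_Mus. A row stands for all genomic copies of its repeat together. All 11 rows carried an adjusted p in every table, so that none was lost to a filter on low reads.

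MuRRS stands for murine retrovirus-related sequences, which resemble the proviruses of murine leukaemia virus. An endogenous retrovirus is a provirus that entered the germ line. Its internal part once coded for viral proteins, and the LTR on each side carries the promoter and the signal for polyadenylation. Recombination between both LTRs of a provirus removes the internal part and leaves a solitary LTR, so that LTR copies can lie far from any internal part. In mouse embryonic stem cells many such elements are held silent by KRAB zinc finger proteins, the corepressor TRIM28 and histone methylation by SETDB1.

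The study asked how inhibition of the chaperone HSP90 changes RNA from endogenous retroviruses. There were 18 libraries of poly(A) RNA, 3 in each of 6 groups. Embryonic stem cells (ESCs) in 2i medium were given the HSP90 inhibitor NVP-AUY922 at 100 nM for 24 h or left untreated. Bone-marrow-derived macrophages, grown with M-CSF, were given 500 nM for 24 h or left untreated, and neuronal progenitor cells (NPCs), grown in N2B27 with EGF and FGF, 50 nM for 24 h or left untreated. Per the labels, the ESCs and NPCs had the strain background 129S1/CASTEiJ and the macrophages BALBC/C57BL6, so that cell type, dose and, for macrophages, strain cannot be told apart. Treated and untreated groups of a cell type shared strain and medium. Whether the 3 libraries of a group came from separate cultures is not in the labels; p-values then reflect only how these libraries vary, which may be technical.

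The tables hold the authors' contrast of treated and untreated libraries and no value per library, and the depth per library is unknown. They hold repeat rows and no gene rows, so cell identity was not checked against marker genes here. Which group is the numerator of the contrast is not stated in the sources used here. A row is therefore placed on the positive or the negative side without saying which of them stands for treated cells. The sources also leave unstated whether all 3 tables were oriented alike. An error after ± is the standard error (SE) that the authors' deposited table gives for a log2 fold change, and a row is called past the test when its adjusted p there was under 0.05. With RNA from whole cultures, fewer cells of a kind and less RNA per cell cannot be told apart.

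The rows differed widely in how many reads they held, and LTRIS2 in ESCs held most. The base mean is the mean over the libraries of a cell type of the reads in a row after division by size factors; it is per row, not per length or per copy, so levels of an LTR and an internal part are not comparable. LTRIS2 had a base mean of 32960 in ESCs in the authors' deposited table, place 24 of 1365 rows and place 2 of the 119 ERV1 rows. In macrophages its base mean was 1247, place 213 of all rows, and in NPCs 949, place 259. LTRIS2 alone held 72.5% of the base mean summed over the 11 rows in ESCs, against 25.6% in macrophages and 15.1% in NPCs. All 11 rows together made up 15.1% of the ERV1 base mean in ESCs, 4.09% in macrophages and 8.81% in NPCs. Each table was normalised by itself, so these shares and places are set side by side without a test.

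MuRRS4-int was the internal part with more reads in every table. In the authors' deposited tables its base mean was 6976 for ESCs, 1308 for macrophages and 1841 for NPCs, against 771, 528 and 794 for MuRRS-int in the same order. LTRIS_Mus, at 2599, 1137 and 1620, was the LTR with most reads in NPCs and the second in ESCs and macrophages. LTRIS_Mm, LTRIS3, LTRIS4 and LTRIS4A had base means between 56.3 and 738 over the 3 tables. LTRIS4B, LTRIS5 and LTRIS6 were scarce, between 12.3 and 42.3 in every table. Their intervals are correspondingly wide. Whether the authors' fit drew fold changes of rows with few reads towards 0 is not stated in the sources used here. The largest SE over all tested ESC rows was 0.34, although MER134 had a base mean of only 7.39 there. With 3 libraries in each group, counting noise alone would give a row of so few reads a larger SE. Fold changes and SE of scarce rows are thus likely drawn towards 0.

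**Figure D1:**
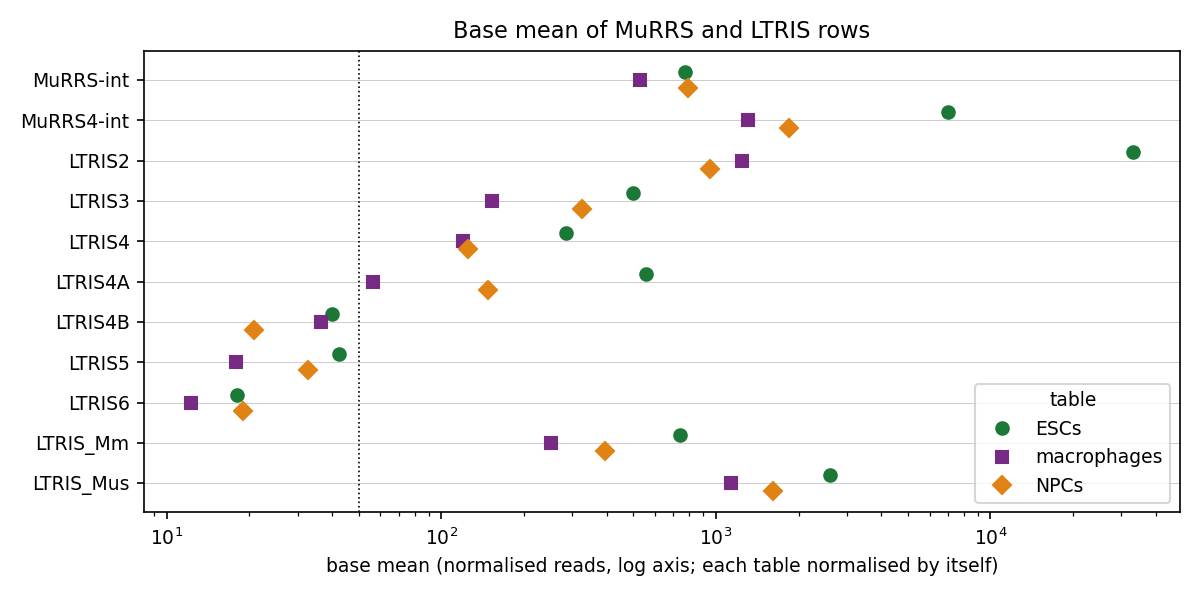
Base mean (normalised reads, log axis) of the 11 rows in the table of each cell type, 1 point per row and table; the dotted line marks 50. LTRIS2 in ESCs stands apart at 32960, and LTRIS4B, LTRIS5 and LTRIS6 lie under the line in all 3 tables.

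In ESCs the 2 internal parts lay on opposite sides of the contrast, and so did the LTRs that passed. In the authors' deposited table MuRRS-int was positive at 0.69 ± 0.11, so that the groups differed 1.62-fold (DESeq2 adjusted p = 2.84e-09). MuRRS4-int was negative at -0.31 ± 0.08, or 1.24-fold, in the authors' deposited table (adjusted p = 0.0025). Of the LTRs in the authors' deposited table, LTRIS_Mus was positive at 0.58 ± 0.09, or 1.49-fold (adjusted p = 3.50e-10). LTRIS3 was negative there at -0.74 ± 0.12, or 1.67-fold (adjusted p = 3.54e-09), and so was LTRIS4A at -0.31 ± 0.11, or 1.24-fold (adjusted p = 0.0216). The largest of these 5 differences was thus that of LTRIS3.

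Altogether 5 of the 11 rows passed in ESCs, 2 positive and 3 negative. Over all 1132 rows tested in ESCs, 22.2% passed, 10.2% on the positive and 12.0% on the negative side. Among the other ERV1 rows, 29 of 99 passed, 10 positive and 19 negative. The median log2 fold change was -0.10 over the 11 rows, -0.06 over the other ERV1 rows and 0.0019 over all tested rows. Centred on the median of the ERV1 rows, -0.07, the split was 3 positive and 2 negative, with LTRIS4 gained at an adjusted p of 0.0426 and LTRIS4A lost at 0.0905. With this centring 22.7% of all 1132 tested rows passed.

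LTRIS2, the row with most reads, narrowly missed the threshold in ESCs. The authors' deposited table gives it -0.24 ± 0.10 (adjusted p = 0.0545), and its 95% interval, computed from the SE, ran from -0.44 to -0.05. Re-adjusted over rows whose base mean was at least 50, its adjusted p was 0.0468. In the authors' deposited table LTRIS4 had 0.28 ± 0.14 (adjusted p = 0.128) and LTRIS_Mm 0.14 ± 0.09 (adjusted p = 0.350), and neither passed. The 95% interval of LTRIS_Mm, from -0.04 to 0.32, leaves out changes as large as that of LTRIS_Mus. The scarce LTRIS4B, LTRIS5 and LTRIS6 have -0.10 ± 0.25, -0.0042 ± 0.2462 and -0.45 ± 0.31 in the authors' deposited table. Their 95% intervals are wide enough to hold the values of MuRRS4-int and LTRIS4A, and that of LTRIS6, from -1.06 to 0.17, also holds the value of LTRIS3.

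In macrophages both internal parts lay on the negative side, and of 3 LTRs that passed, 2 were positive and 1 negative. The authors' deposited table has MuRRS-int at -0.43 ± 0.12, or 1.34-fold (adjusted p = 0.0033), and MuRRS4-int at -0.33 ± 0.10, or 1.26-fold (adjusted p = 0.0080). LTRIS_Mus had the largest absolute value of the 11 rows in the authors' deposited table, 0.80 ± 0.14, or 1.74-fold (adjusted p = 4.35e-07). LTRIS3 was also positive there, with 0.65 ± 0.17, or 1.57-fold (adjusted p = 9.96e-04). LTRIS_Mm was negative in the authors' deposited table, with -0.73 ± 0.11, or 1.65-fold (adjusted p = 1.01e-09). The LTRs LTRIS_Mm and LTRIS_Mus thus lay on opposite sides, with 95% intervals from -0.94 to -0.51 and from 0.52 to 1.09.

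The macrophage count was 5 of 11, with 2 positive and 3 negative. Of the 1255 rows tested in macrophages, 25.8% passed, 13.3% positive and 12.5% negative, and of the other ERV1 rows 32 of 103, 7 positive and 25 negative. The median was -0.25 over the 11 rows, -0.07 over the other ERV1 rows and -0.0129 over all tested rows. MuRRS4-int depended on the scaling, with an adjusted p of 0.0524 after centring on the ERV1 median of -0.08. In the authors' deposited table LTRIS2 at -0.28 ± 0.14, LTRIS4 at 0.25 ± 0.17 and LTRIS4A at -0.33 ± 0.22 missed the threshold (adjusted p from 0.118 to 0.314). The 3 scarce LTRs lay between -0.25 and -0.05 with SE between 0.27 and 0.33.

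In NPCs LTRIS4 and LTRIS4A passed, both on the positive side, and the other 9 of the 11 rows did not pass. The authors' deposited table has LTRIS4 at 0.9999 ± 0.2602, or 2.00-fold (adjusted p = 0.0023), and LTRIS4A at 0.77 ± 0.23, or 1.71-fold (adjusted p = 0.0089). LTRIS4B, the remaining row of these names, did not pass and had a value of -0.66 ± 0.38 at a base mean of 20.9 in the authors' deposited table. Its 95% interval, from -1.40 to 0.08, does not reach the values of LTRIS4 and LTRIS4A. The difference between these rows was not tested, since rows of 1 table share libraries and may share reads.

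Over the 1249 rows tested in NPCs 11.8% passed, 4.96% positive and 6.81% negative, against 2 positive and 0 negative of the 11 rows. Of the other ERV1 rows 15 of 103 passed, 5 positive and 10 negative. In the authors' deposited table LTRIS6 at 1.02 ± 0.37 (adjusted p = 0.0536), LTRIS3 at 0.81 ± 0.30 (adjusted p = 0.0602) and LTRIS5 at -0.99 ± 0.38 (adjusted p = 0.0709) missed the threshold. Each had an unadjusted p under 0.05 there. The share of all NPC rows with such a p was not counted, so no excess is read from these rows. LTRIS6 and LTRIS5 had base means of only 19.0 and 32.6. Re-adjusted over rows whose base mean was at least 50, LTRIS3 had an adjusted p of 0.0477.

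The NPC estimates were less precise than those of the other tables. The median SE over the 11 rows was 0.27 in NPCs, against 0.11 in ESCs and 0.17 in macrophages. In the authors' deposited table MuRRS-int at -0.12 ± 0.27, MuRRS4-int at -0.15 ± 0.23, LTRIS_Mm at -0.21 ± 0.31 and LTRIS_Mus at -0.36 ± 0.26 missed the threshold (adjusted p from 0.507 to 0.895). The 95% interval of MuRRS4-int in NPCs, from -0.59 to 0.30, holds the values it had in ESCs and in macrophages. That of MuRRS-int, from -0.66 to 0.42, holds its macrophage value and not its ESC value. For LTRIS2 the authors' deposited table gives 0.18 ± 0.18 (adjusted p = 0.673), with a 95% interval from -0.17 to 0.52.

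**Figure D2:**
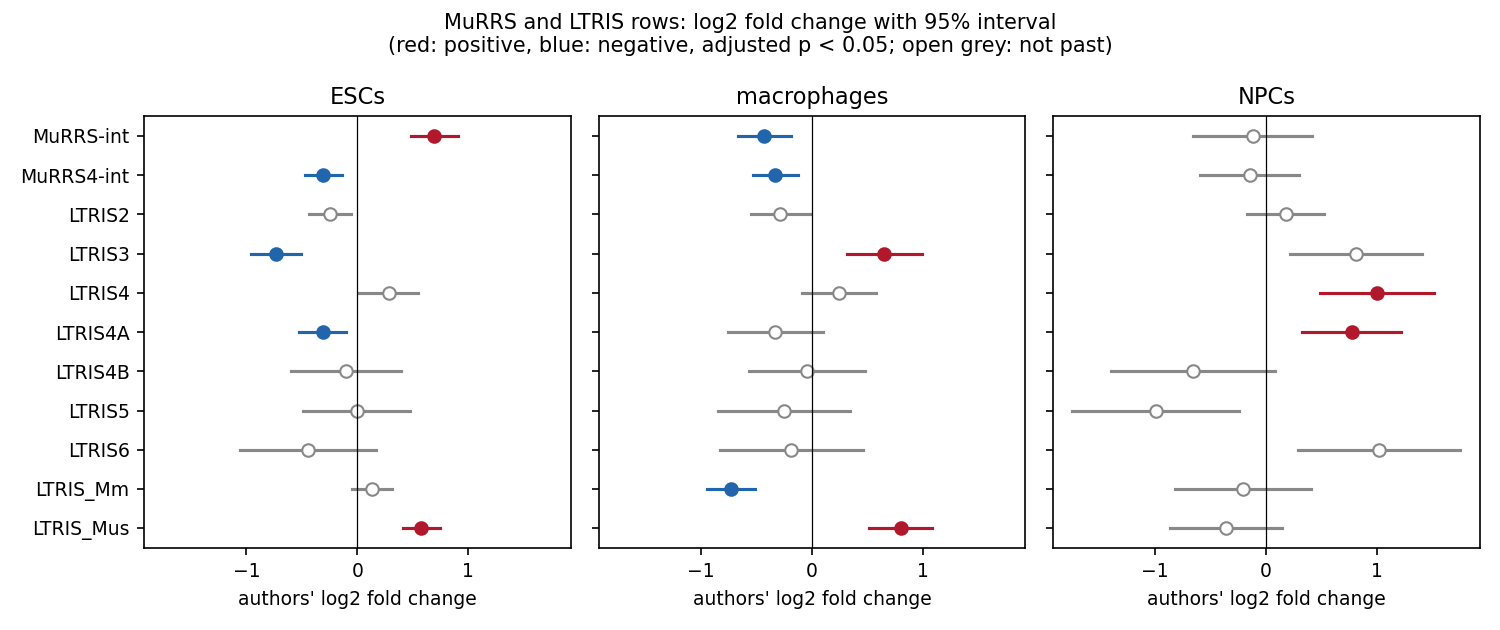
The authors' log2 fold change (x axis) of the 11 rows in ESCs, macrophages and NPCs; points are the deposited estimates, lines the 95% intervals from the deposited SE, and filled points passed an adjusted p of 0.05. MuRRS-int and LTRIS3 passed on opposite sides in ESCs and macrophages, LTRIS_Mus passed on the positive side in both, and in NPCs the filled points are LTRIS4 and LTRIS4A.

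Among all repeat rows the members with the largest changes stood above the middle and short of the extremes, while other members stood below the middle. Among tested rows whose base mean was at least 50, ranked by absolute log2 fold change, LTRIS3 and MuRRS-int took places 52 and 59 of 860 in ESCs. LTRIS_Mus took place 48 and LTRIS_Mm place 63 of 769 in macrophages, and LTRIS4 took place 41 of 785 in NPCs. These were picked for their large change. LTRIS_Mm took place 456 in ESCs, and MuRRS-int, MuRRS4-int and LTRIS2 took places 537, 496 and 446 in NPCs. The 11 rows had a median absolute log2 fold change of 0.31 for ESCs, 0.33 for macrophages and 0.66 for NPCs, against 0.18, 0.22 and 0.24 over all tested rows in the same order. The NPC value includes the scarce rows with SE near 0.4.

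**Figure D3:**
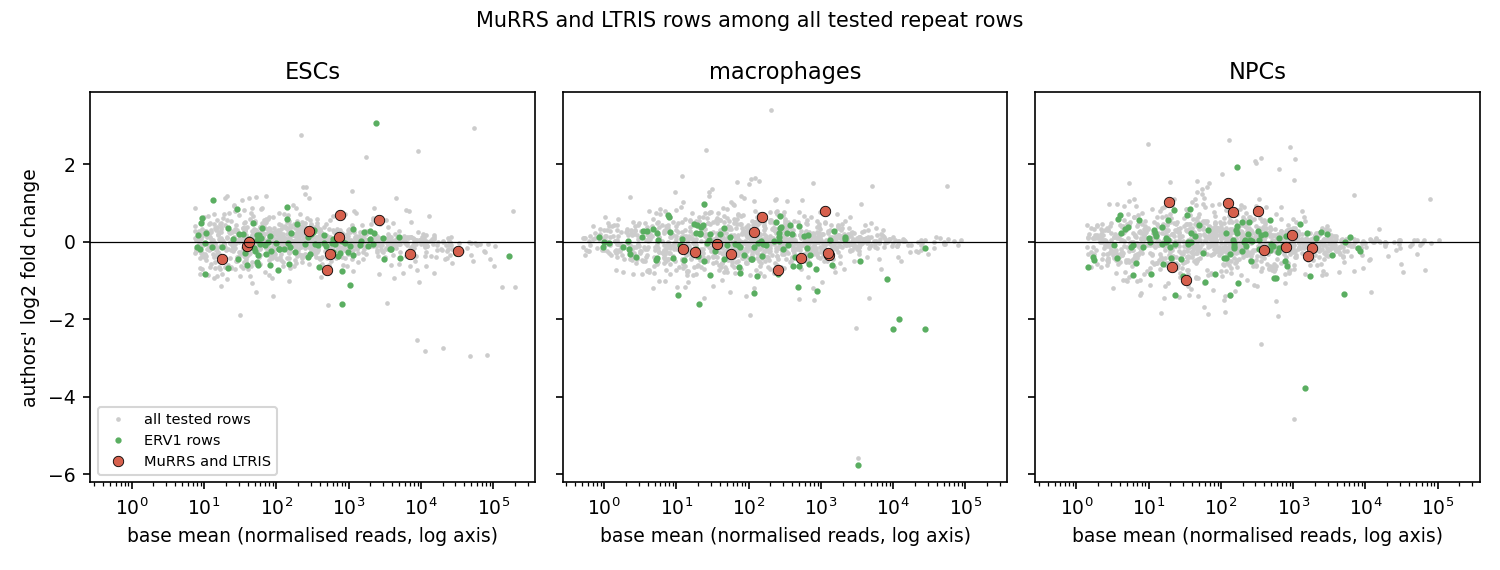
The authors' log2 fold change (y axis) against base mean (normalised reads, log x axis) for all tested rows in grey, ERV1 rows in green and the 11 MuRRS and LTRIS rows in red, 1 panel per cell type. The red points lie between -0.99 and 1.02, inside the cloud and short of its outermost rows, which reach 3.06 in ESCs and -5.76 in macrophages.

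Related elements are given for comparison by their counts. The 3 rows of murine leukaemia virus, MuLV-int, RLTR4_Mm and RLTR4_MM-int, all passed on the negative side in macrophages, between -2.26 and -1.997 in the authors' deposited table, whereas the MuRRS and LTRIS rows that passed there lay on both sides. In ESCs 1 of these 3 passed, on the positive side, and in NPCs 0 of 3. The 5 rows of VL30, a retroelement that is packaged by murine leukaemia virus, had 1 positive and 1 negative in ESCs, 0 and 2 in macrophages and 1 and 0 in NPCs. The 9 rows with RLTR1 names, which include LTRs of GLN retroviruses, are ERV1 by class except RLTR1F_Mm, which is ERVK. MMERGLN-int and MMERGLN_LTR, which are also GLN rows, are not in this list, whose name pattern did not take them in. The 9 rows had 0 positive and 4 negative in ESCs, 3 and 2 of 8 tested in macrophages, and 0 and 2 in NPCs. No test of these lists against each other was made.

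How members stand to each other within a table does not depend on which group is the numerator. Of the 11 rows, 4 passed in both ESCs and macrophages, namely MuRRS-int, MuRRS4-int, LTRIS3 and LTRIS_Mus. In ESCs MuRRS-int and LTRIS_Mus shared a side and MuRRS4-int and LTRIS3 shared the other. In macrophages LTRIS3 and LTRIS_Mus shared a side and both internal parts shared the other. Of the 6 pairs these rows form, 4 changed between same side and opposite sides, and 2 kept their relation. These pair counts follow from 2 of the 4 rows changing side and 2 not, and add nothing to that. With the tables taken as deposited, MuRRS-int and LTRIS3 changed side; with the sign of 1 table turned, MuRRS4-int and LTRIS_Mus did. Of the 1124 repeat rows tested in both tables, 106 passed in both, 72 on the same side and 34 on opposite sides as deposited.

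Cell types were compared by subtracting the log2 fold changes of a row and dividing by the root of the summed squared SE, with a normal p adjusted by Benjamini-Hochberg over all rows tested in both tables. The 2 tables of a pair share no library, while each table enters 2 of the 3 pairs. The test takes the tables as oriented alike, and each result below is bound to that. It also takes the deposited fold changes and SE as they stand, without allowance for values drawn towards 0 by the fit. Between ESCs and macrophages 3 of the 11 rows differed, against 23.7% of 1124 rows. MuRRS-int, at 0.69 in ESCs and -0.43 in macrophages, differed by 1.12 ± 0.16 with an adjusted p of 2.22e-10. LTRIS3, at -0.74 in ESCs and 0.65 in macrophages, differed by -1.39 ± 0.21 with an adjusted p of 4.76e-10. LTRIS_Mm, at 0.14 in ESCs and -0.73 in macrophages, differed by 0.86 ± 0.14 with an adjusted p of 4.58e-08.

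The other rows gave small differences between ESCs and macrophages, some with narrow bounds. MuRRS4-int differed by 0.02 ± 0.13, with a 95% interval from -0.24 to 0.28, and LTRIS2 by 0.04 ± 0.17, from -0.29 to 0.37. LTRIS_Mus differed by -0.23 ± 0.17, from -0.56 to 0.10. The remaining 5 LTRs differed by between -0.26 and 0.25, with SE between 0.22 and 0.45. Turning the sign of the macrophage table gave 5 differing rows of the 11, against 27.9% of 1124 rows. LTRIS_Mus then differed by 1.38 with an adjusted p of 5.49e-15, while MuRRS-int and LTRIS3 no longer passed, with adjusted p of 0.230 and 0.796.

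NPCs differed from ESCs in 5 of the 11 rows, against 12.6% of 1126 rows. LTRIS3, at 0.81 in NPCs and -0.74 in ESCs, differed by 1.54 ± 0.32 with an adjusted p of 4.94e-05. LTRIS4A, at 0.77 in NPCs and -0.31 in ESCs, differed by 1.08 ± 0.25 with an adjusted p of 3.17e-04, and it is the row that passed on opposite sides in these tables. LTRIS_Mus, at -0.36 in NPCs and 0.58 in ESCs, differed by -0.94 ± 0.27 with an adjusted p of 0.0065. LTRIS6 at 1.46 ± 0.49 and MuRRS-int at -0.82 ± 0.30 passed with adjusted p of 0.0262 and 0.0459, and LTRIS6 had base means under 20 in both tables. With the sign of the ESC table turned 1 of the 11 rows differed, against 16.2% of 1126 rows. It was LTRIS4, by 1.28 with an adjusted p of 2.03e-04.

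Between NPCs and macrophages 2 of the 11 rows differed, against 12.4% of 1222 rows. LTRIS4A, at 0.77 in NPCs and -0.33 in macrophages, differed by 1.10 ± 0.31 with an adjusted p of 0.0072. LTRIS_Mus, at -0.36 in NPCs and 0.80 in macrophages, differed by -1.16 ± 0.29 with an adjusted p of 0.0017. LTRIS4, which passed in NPCs and not in macrophages, differed by 0.75 ± 0.31 with an adjusted p of 0.103 and a 95% interval from 0.14 to 1.36. Its difference from ESCs, 0.72 ± 0.29 with an adjusted p of 0.0905, did not pass either. LTRIS3 differed by 0.15 ± 0.35 between NPCs and macrophages, with a 95% interval from -0.53 to 0.84. With the sign of the macrophage table turned, LTRIS4A and LTRIS_Mus no longer passed, with adjusted p of 0.377 and 0.339. The rows that then passed were LTRIS3 at 1.46, LTRIS4 at 1.25 and LTRIS_Mm at -0.94, with adjusted p of 3.60e-04, 7.1e-04 and 0.0276. That is 3 of the 11 rows, against 19.9% of 1222 rows.

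**Figure D4:**
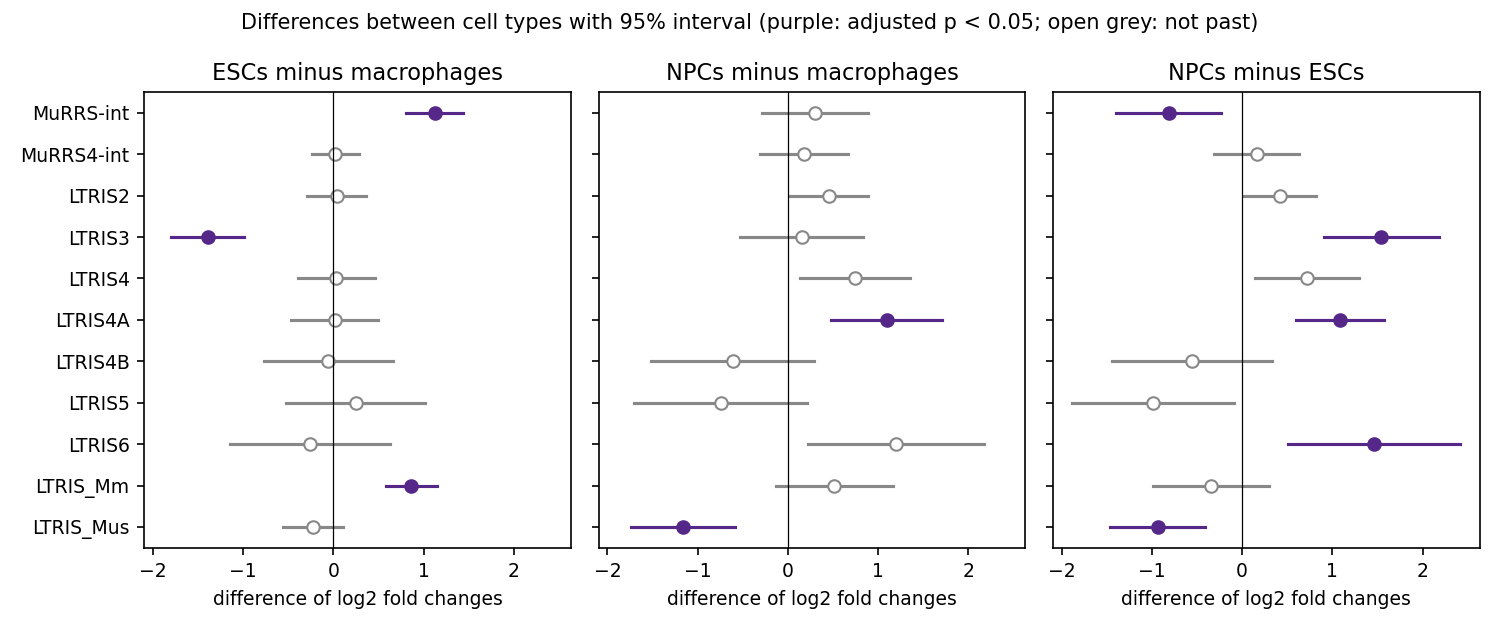
Difference of the authors' log2 fold changes between cell types (x axis) for the 11 rows, first named minus second named, with 95% intervals from the summed squared SE; filled purple points passed an adjusted p of 0.05. LTRIS3 stands at -1.39 in ESCs minus macrophages and at 1.54 in NPCs minus ESCs, and MuRRS4-int lies near 0 in all 3 panels.

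Across the 3 tables, 4 of the 11 rows passed in none (LTRIS2, LTRIS4B, LTRIS5 and LTRIS6), 2 in 1 table (LTRIS4 and LTRIS_Mm), 5 in 2 tables and 0 in all 3. Of the 1121 repeat rows tested in all 3 tables, 596 passed in none, 375 in 1, 117 in 2 and 33 in all 3, so that 13.4% passed in 2 or more. As deposited, the estimate had the same sign in all 3 tables in 4 of the 11 rows and in 357 of the 1121. Turning the sign of the ESC table gave 3 of 11 and 262 of 1121, turning that of macrophages gave 0 and 247, and turning that of NPCs gave 4 and 255. With the signs as deposited, 3 of the 11 rows passed on opposite sides in a pair of tables, MuRRS-int, LTRIS3 and LTRIS4A, against 53 of 1121 rows, or 4.73%. Turning the sign of 1 table gave 2 or 3 of the 11 rows and between 7.85% and 8.74% of all rows. Only a row that passed in 2 or more tables can be on opposite sides. Of such rows as deposited, 3 of 5 members were on opposite sides, 53 of 150 over all rows and 6 of 19 other ERV1 rows.

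The rows most alike in their 3 log2 fold changes, among 708 other rows whose base mean was at least 50 in all tables, came from other classes. ERV1 rows outside the members are few, 74 of the 860 tested rows with such a base mean in ESCs. Most rows that could be nearest were thus of other classes. The measure was the Euclidean distance over the 3 tables, which does not depend on the orientation of any of them. The distances use the deposited fold changes without allowance for values drawn towards 0 by the fit. Nearest to MuRRS-int were RMER16B2, an ERVK row, at a distance of 0.13, then MT2C_Mm at 0.23 and MLT2C2 at 0.26, both ERVL. The nearest member to MuRRS-int was LTRIS_Mm at 0.64, and the median distance over the 708 rows was 0.93. The nearest member was sought among only 7 rows, so its distance cannot be set against the smallest of 708. Nor can it be set against the median, since the smallest of 7 distances would mostly lie under it. MuRRS4-int had MLT1H1, an ERVL-MaLR row, at 0.08, Lx5, an L1 row, at 0.13 and L4_A_Mam, an RTE-X row, at 0.13. LTRIS2 had the hAT DNA transposons Charlie1b and Charlie2b at 0.07 and 0.13 and FAM, a SINE, at 0.16. Among the members, MuRRS4-int and LTRIS2 were each other's nearest at 0.33. Their median distances to the 708 rows were 0.63 and 0.59, which for the same reason does not set this pair apart.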

How the data were processed

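Per the labels' protocols the libraries were poly(A)-selected and stranded. The submitters' processing notes name the genome build mm10 and, without saying what each did, the tools deepTools, DESeq2, featureCounts, Bowtie2, TopHat2 (2.0.13) and Trim Galore. Per the file headers, the 3 tables are DESeq2 results. The base mean, a signal, is the authors' mean of size-factor-normalised counts. The log2 fold change and its SE are the authors' deposited estimates, the statistic column is a Wald score from the authors, and both the p-value and its adjusted form are also the authors' own. In all tested rows the Wald score equalled the deposited log2 ratio over its SE, within a relative difference of 1e-06. The treatment of multi-mapping reads and the use of strand in counting are not given in the sources used here, so near-identical rows, and an LTR and the internal part it flanks, can share reads, and so can a row and the transcript of a gene that holds a copy. Part of the genome of ESCs and NPCs is CASTEiJ, which differs from the mm10 strain.

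The tables hold no values per library, so the authors' adjusted p under 0.05 was the test. The 95% intervals, the differences between cell types, the lists, the distances and the alternatives were computed with Python 3.11.15, pandas 2.3.3 and scipy 1.17.1. The differences were also computed on simulated fold changes drawn with the deposited SE. That checks the computation, and cannot show whether the SE or the orientation of the tables are right. The members and lists were chosen with earlier results of these data known. Every member was named. Those past the test in at least 1 table got full values, and the 3 rows most alike were given for both internal parts and the LTR with the highest summed base mean. The MLV-like list was read as names beginning with RLTR4_ or MuLV, since RLTR40 to RLTR49 are other repeats. No alternative was added after the data were seen. Consensus and genome sequences of these repeats were not used here.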

Additional observations from a re-analysis of the deposited data

Results flagged for a closer look

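In 10 instances a MuRRS or LTRIS row differed between cell types by the test of the difference of log2 fold changes, with the tables taken as oriented alike. Between ESCs and macrophages these were MuRRS-int at 1.12, LTRIS3 at -1.39 and LTRIS_Mm at 0.86, each the ESC minus the macrophage value. Between NPCs and macrophages they were LTRIS4A at 1.10 and LTRIS_Mus at -1.16. Between NPCs and ESCs they were MuRRS-int at -0.82, LTRIS3 at 1.54, LTRIS4A at 1.08, LTRIS6 at 1.46 and LTRIS_Mus at -0.94. The cell types also differ in dose and, for macrophages, in strain, and these cannot be told apart.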

How the results depend on the processing

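No paired analysis was possible because the tables carry no values per library, and fits without a replicate were not run for the same reason. Requiring an absolute log2 fold change of at least 0.5 left 3 of the 11 rows in ESCs, against 11.7% of all tested rows, and 3 in macrophages, against 14.0%. An adjusted p under 0.10 gave 5 rows in NPCs (14.8% of all), and one under 0.01 left 3 rows that differed between NPCs and ESCs (8.44% of all). The orientation of the tables mattered most for the differences. With the macrophage table turned, 5 rows differed between ESCs and macrophages (27.9% of all). Their values were -0.63 for MuRRS4-int, -0.53 for LTRIS2, -0.64 for LTRIS4A, -0.59 for LTRIS_Mm and 1.38 for LTRIS_Mus. Of these only LTRIS_Mm also differed as deposited, with the other sign. For NPCs minus macrophages 3 rows then differed in place of 2 (19.9% of all). By the test of the difference, LTRIS4A and LTRIS_Mus, each at 0.44, were lost (adjusted p = 0.377 and 0.339). LTRIS3, LTRIS4 and LTRIS_Mm, the last at -0.94, were gained (adjusted p = 3.60e-04, 7.1e-04 and 0.0276). With the ESC table turned, 1 row differed between NPCs and ESCs (16.2% of all). MuRRS-int and LTRIS_Mus, at 0.57 and 0.21, then no longer passed (adjusted p = 0.191 and 0.693). By the same test of the difference, LTRIS3 at 0.07, LTRIS4A at 0.46 and LTRIS6 at 0.57 were lost too (adjusted p = 0.923, 0.226 and 0.501). Re-adjustment over every row with a p, centring on the median of the tested rows, and centring each table for the differences changed the call of none of the 33 values each was applied to. A base mean of at least 50 moved 2 of 24 values past the test and, for the differences, 0 of 24. Centring on the ERV1 median gained 2 and lost 2 of 33. At an adjusted p of 0.01, 3 calls were lost among 66 values. Unknown depth per library and the scarce LTRIS4B, LTRIS5 and LTRIS6 limit what could be detected.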
